A study of Mus musculus with 8 samples.

Results

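The comparison set 4 arrays of mouse adipocytes exposed to chrysotile or crocidolite against 4 arrays of the same cells given physiological saline or amosite, 8 of 8 arrays in all. The 2 pools were chosen by the array titles, but with results from these same arrays known, so the difference between the pools is given here as a description with no test of it. Mature adipocytes had been differentiated from the mouse 3T3-L1 preadipocyte line, a single immortalised line used as a cell culture model of fat cells. Chrysotile, crocidolite and amosite are commercial forms of asbestos, given at a dose that the labels write as 10 mg/cm2 (a unit not checked against another source here), and total RNA was taken after 72 h. Saline served as the untreated control, and each of the 4 groups had 2 arrays, numbered replicate 1 and replicate 2. The labels do not say whether the 2 replicates of a group came from separate cultures, so p-values below cover the spread among these arrays alone, and that spread may be technical. In RNA from whole cultures, fewer cells of a type and less RNA per cell cannot be told apart.

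Chrysotile is a serpentine mineral with curled fibres, whereas crocidolite and amosite are both amphiboles with straight, rod-like fibres, so the pools cut across the mineral classes. Asbestos fibres are known to persist in tissue and to set off inflammation through oxidant production and the transcription factors NF-kB and AP-1. Fat cells answer inflammatory signals by secreting acute phase proteins such as serum amyloid A and lipocalin 2, chemokines such as CCL2, and matrix-degrading enzymes, and they are known to lower their lipid-making programme at the same time.

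Values are log2 intensity minus the 75th percentile of the array, so a gene at 0 was as bright as the probe at that percentile. Between 31286 and 34973 probes per array (56.2% to 62.8%) passed the scanner software's test of signal well above background. The 75th percentile of intensity before scaling was 471.1 to 526.1 on the chrysotile and crocidolite arrays and 394 to 457.8 on the saline and amosite arrays, with no overlap. On the single slide each group occupied 1 row, saline in row 1, chrysotile in row 2, crocidolite in row 3 and amosite in row 4, so the inner rows held one pool and the outer rows the other, and row and pool cannot be told apart. Slide column coincided with replicate number in the same way, column 1 holding every replicate 1 and column 2 every replicate 2. Adipocyte markers were present: 22 of 22 were above background on all 8 arrays, with the adipokine gene Adipoq between 8.94 and 9.44. So were 18 of 20 preadipocyte and fibroblast markers, so detection alone does not set mature adipocytes apart from preadipocytes.

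The pooled groups were those nearest to each other. Over the 28694 probes above background on all 8 arrays, the mean difference between chrysotile and crocidolite had an SD across probes of 0.185 (log2), and that between saline and amosite 0.191. The 4 distances across the pools were larger: 0.241 for chrysotile and amosite, 0.256 for crocidolite and amosite, 0.268 for saline and chrysotile and 0.287 for saline and crocidolite. Each fibre's nearest group was therefore the other member of its pool, and amosite lay nearer to saline than to either other fibre. The pools were chosen with such results known, so the distances are no test of them.

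**Figure D1:**
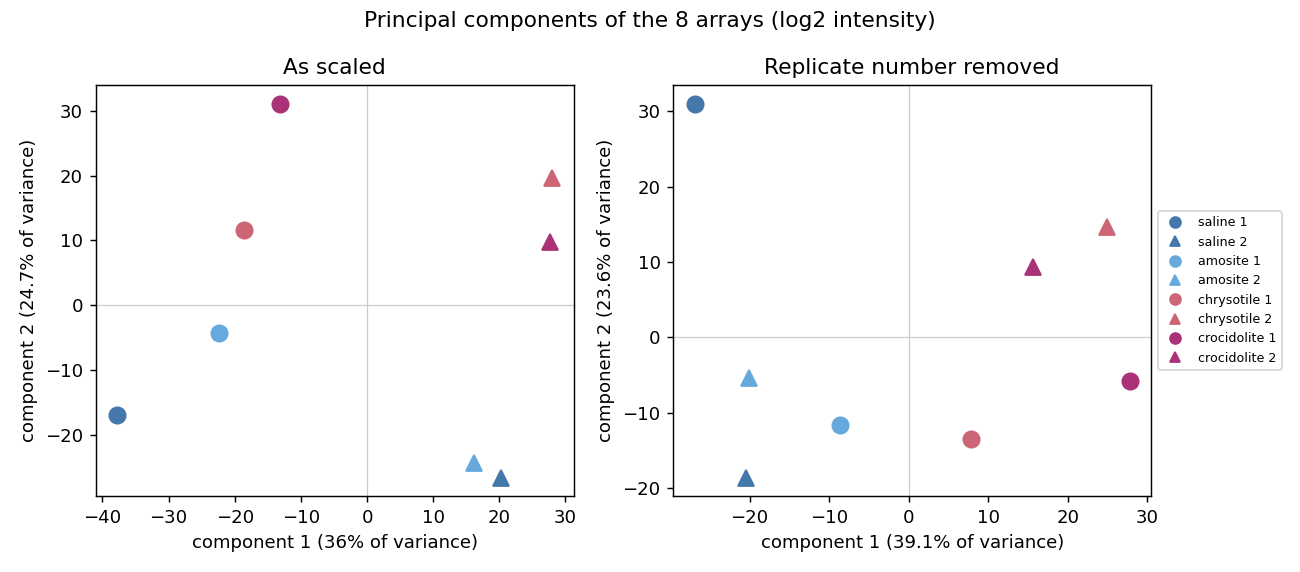
Positions of the 8 arrays on the first 2 principal components of log2 intensity, before (left) and after (right) the mean of each replicate number was removed; each point is 1 array. On the left component 1 (36% of variance) parts the replicate numbers and component 2 (24.7%) the pools, and on the right component 1 (39.1%) has all chrysotile and crocidolite arrays between 7.78 and 27.76 and all saline and amosite arrays between -26.87 and -8.66.

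The largest component of variance parted the replicate numbers, not the treatments, and since these coincide with the slide columns the 2 cannot be told apart. The second component, with 24.7% of the variance, held the pools apart: the chrysotile and crocidolite arrays lay at 11.68, 19.72, 31.15 and 9.83, and the saline and amosite arrays at -16.97, -26.65, -4.38 and -24.38. Once the replicate number was removed, the first component (39.1%) separated the pools, with chrysotile 1 at 7.78 and amosite 1 at -8.66 the arrays nearest to each other across the gap. Across the 28694 bright probes, the difference between the pools in replicate 1 and that in replicate 2 correlated with r = 0.37 and had the same sign for 61.9% of probes. The same figures were 0.10 and 53% for chrysotile minus crocidolite, and -0.08 and 42.4% for amosite minus saline; these are descriptions across probes of the same arrays, and a pooled difference averages 2 arrays a side where the other 2 rest on 1.

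In limma with the replicate number as a block, none of 55672 probes passed an adjusted p of 0.05 between the pools (0%), against 6749 at an unadjusted p under 0.05, and since the pools were chosen on this contrast nothing is read from either figure. The count changed with the settings: it was 0 without the block and with quantile normalization, 207 when only the 28694 probes above background on all arrays were tested, 537 with normexp background correction and 586 with a trended and robust prior. Normexp was run with an offset of 50 added to every spot, which by itself shrinks log2 differences of dim probes. The offset's part in the normexp values here and below was not tested. The 2 contrasts within the pools were not used in the pooled difference, although the pools were chosen with their results known. Limma called 0 of 55672 probes between chrysotile and crocidolite (0%; 2713 at an unadjusted p under 0.05; smallest adjusted p 0.577). It also called 0 between amosite and saline (0%; 4030 unadjusted; smallest adjusted p 0.623), and both counts were 0 in every alternative run. That absence of calls does not show that the groups within a pool were alike.

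Among 22218 genes with a symbol, each read from 1 probe, all 4 chrysotile and crocidolite arrays lay above all 4 saline and amosite arrays for 830 genes (3.74%) and below them for 796 (3.58%). With a difference of at least 2-fold as well, 86 genes were higher (0.387%) and 55 lower (0.248%). These shares come from the contrast that chose the pools and carry no test. At the level of probes, 135 were at least 2-fold higher without overlap and 164 lower, 299 in all, but among probes above background in at least 1 group the split was 107 higher and 32 lower, with quantile normalization 185 and 85, and with normexp 51 and 2. Leaving out 1 array at a time, which asks for separation of only 7 arrays, gave 382 to 1006 such probes, the most without chrysotile replicate 1. The 26 genes described first are the 16 with the largest positive and the 10 with the largest negative difference among those without overlap.

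**Figure D2:**
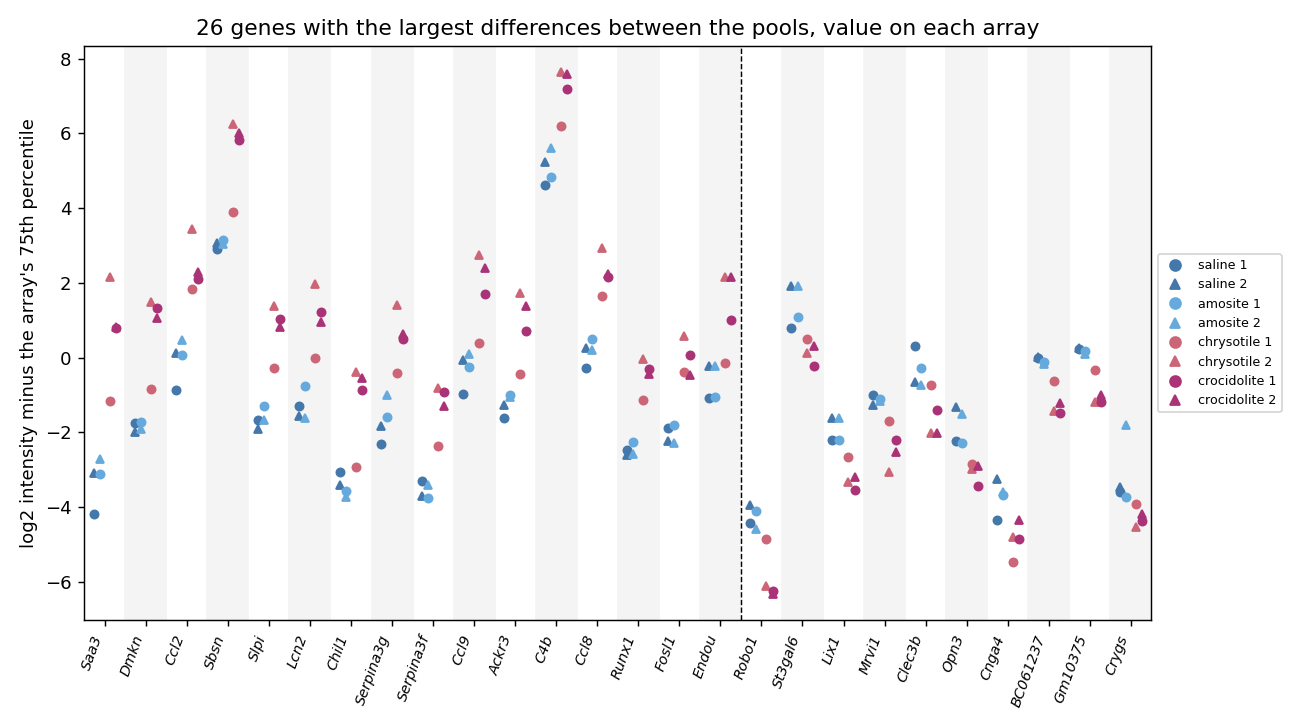
Log2 intensity minus the array's 75th percentile (vertical axis) of the 26 genes (horizontal axis) on each of the 8 arrays; circles are replicate 1, triangles replicate 2, blue points saline and amosite, red and purple points chrysotile and crocidolite. The 16 genes left of the dashed line lay higher on all 4 chrysotile and crocidolite arrays and the 10 right of it lower, and chrysotile 1 was the array of its pool nearest to the other pool in 15 of the 16 and, leaving out Robo1, in 8 of the other 9.

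Saa3 had the largest difference of the 16 higher genes, and Lcn2, another acute phase gene, was also among them. Saa3, the serum amyloid A gene that fat cells express in inflammation (probe at chr7:53970389-53970448, mm9), read -4.17 and -3.08 with saline, -3.11 and -2.70 with amosite, -1.17 and 2.17 with chrysotile and 0.79 and 0.81 with crocidolite. All 4 chrysotile and crocidolite arrays were above the other 4, chrysotile 1 by the least. The difference of 3.91 ± 0.55 (SE from limma with the replicate block) corresponds to 15.1-fold. That error treats the 4 arrays of a pool as alike, although each pool held 2 treatments, and the genes were picked for large differences. Lcn2, which encodes the siderophore-binding protein lipocalin 2 (chr2:32240199-32240258, mm9), read -1.29 and -1.56 with saline, -0.76 and -1.61 with amosite, -0.01 and 1.97 with chrysotile and 1.21 and 0.95 with crocidolite, a difference of 2.34 ± 0.44 or 5.05-fold. Hp, which is not one of the 16, the haptoglobin gene whose product binds free haemoglobin (chr8:112099045-112099104, mm9), was at 3.95 and 5.67 with saline, 4.24 and 5.73 with amosite, 5.23 and 9.12 with chrysotile and 7.92 and 8.74 with crocidolite. Its pools overlapped, because chrysotile 1 lay under saline 2 and amosite 2, but within each replicate number both chrysotile and crocidolite were above both others (2.85 ± 0.56, 7.23-fold). Of the 18 acute phase genes on the list, 15 had a positive difference and 5 lay higher without overlap, with a median of 0.51 against -0.06 over all genes with a symbol. Of all genes with a symbol 3.74% lay higher and 3.58% lower without overlap, shares that belong beside the count of each list. Those genes included 5062 above background on no array, while most lists held few such genes. Of the 14605 genes above background on all 4 arrays of at least 1 pool, 811 lay higher and 678 lower without overlap. All lists were chosen with earlier results of these data known, so their counts are descriptions. The acute phase median was 0.34 among replicate 1 arrays and 0.94 among replicate 2 arrays.

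Of the protease inhibitor and complement genes, Serpina3g, Serpina3f, Slpi and C4b were among the 16. Serpina3g, a serine protease inhibitor gene (chr12:105480045-105480104, mm9), read -2.30 and -1.84 with saline, -1.60 and -1.01 with amosite, -0.41 and 1.4 with chrysotile and 0.49 and 0.63 with crocidolite (2.22 ± 0.33, 4.64-fold). Its neighbour Serpina3f, whose probe lay 12.5 kb away, differed by 2.19 ± 0.34 (1.24 under normexp), and since the genes of this cluster are near copies of each other their probes may share signal. Slpi, the secretory leukocyte protease inhibitor gene (chr2:164179849-164179908, mm9), differed by 2.38 ± 0.36, with saline and amosite arrays from -1.91 to -1.29 and the others from -0.28 to 1.38. C4b, which encodes complement component C4 (chr17:34865328-34865387, mm9), read 4.63 and 5.24 with saline, 4.83 and 5.62 with amosite, 6.19 and 7.64 with chrysotile and 7.18 and 7.58 with crocidolite. Its difference of 2.07 ± 0.22 had the smallest error of the 16 higher genes. Cfb, complement factor B, overlapped between the pools (1.45 ± 0.17) but was higher within each replicate number: 1.79 and 1.83 against 2.80 and 3.50 in replicate 1, and 2.92 and 2.75 against 4.51 and 4.29 in replicate 2. The 19 complement genes as a list were split, with 9 positive, 10 negative, 2 higher and 2 lower without overlap and a median of -0.03. Over all genes with a symbol 39.8% were positive, with a median of -0.06. The complement median ran from -0.07 without amosite replicate 2 to 0.12 without chrysotile replicate 2 and read 0.09 with quantile normalization.

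The 250 bases upstream of the start site are shown for the 5 genes of largest positive difference that the promoter table held and for both chemokine genes it held, because they can be searched for the binding letters of factors that act in acute phase responses. The promoter table of RefSeq (build GRCm38.p6, which is not the build of the probe positions) held 12 of the 16 higher genes and 7 of the 10 lower ones. Capitals mark the letters TTGCNNAA (C/EBP), TGANTCA (AP-1), TTCNNNGAA (STAT) or the NF-kB consensus, on either strand; where matches overlap the capitals run together. Saa3 lies at chr7:46715677-46715926 (minus strand), Dmkn (the first of its 3 start sites in the table) at chr7:30763506-30763755 (plus strand), Sbsn at chr7:30751221-30751470 (plus strand), Slpi at chr2:164356508-164356757 (minus strand), Lcn2 at chr2:32387740-32387989 (minus strand), Ccl9 at chr11:83578637-83578886 (minus strand) and Ccl8, which held none of these letters, at chr11:82114935-82115184 (plus strand), each written 5′ to 3′ in the direction of the gene.
Saa3: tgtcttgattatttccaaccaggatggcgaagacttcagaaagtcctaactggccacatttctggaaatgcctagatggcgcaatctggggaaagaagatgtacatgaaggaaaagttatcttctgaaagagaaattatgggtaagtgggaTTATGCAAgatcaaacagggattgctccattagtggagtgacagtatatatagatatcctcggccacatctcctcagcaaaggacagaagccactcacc
Dmkn: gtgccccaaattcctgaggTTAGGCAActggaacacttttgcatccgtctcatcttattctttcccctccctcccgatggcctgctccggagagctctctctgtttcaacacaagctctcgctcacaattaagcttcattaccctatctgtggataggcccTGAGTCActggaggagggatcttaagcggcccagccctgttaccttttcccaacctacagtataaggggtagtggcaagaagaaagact
Sbsn: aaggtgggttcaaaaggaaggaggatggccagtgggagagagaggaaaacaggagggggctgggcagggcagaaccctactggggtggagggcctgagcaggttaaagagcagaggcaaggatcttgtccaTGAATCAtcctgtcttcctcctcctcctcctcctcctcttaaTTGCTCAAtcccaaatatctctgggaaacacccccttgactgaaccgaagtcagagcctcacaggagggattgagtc
Slpi: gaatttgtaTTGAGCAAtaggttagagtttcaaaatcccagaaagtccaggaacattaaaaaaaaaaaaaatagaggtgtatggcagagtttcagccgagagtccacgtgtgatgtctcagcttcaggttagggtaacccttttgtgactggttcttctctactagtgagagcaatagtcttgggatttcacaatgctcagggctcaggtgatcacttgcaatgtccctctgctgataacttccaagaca
Lcn2: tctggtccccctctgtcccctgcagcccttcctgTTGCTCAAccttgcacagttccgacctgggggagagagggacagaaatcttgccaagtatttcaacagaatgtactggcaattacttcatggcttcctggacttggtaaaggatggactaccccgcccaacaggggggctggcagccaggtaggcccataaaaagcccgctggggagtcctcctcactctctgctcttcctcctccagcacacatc
Ccl9: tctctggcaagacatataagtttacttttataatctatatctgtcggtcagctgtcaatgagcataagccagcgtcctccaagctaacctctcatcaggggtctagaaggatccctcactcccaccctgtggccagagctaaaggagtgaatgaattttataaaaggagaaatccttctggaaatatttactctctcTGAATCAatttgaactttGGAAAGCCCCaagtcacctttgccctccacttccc
Ccl8: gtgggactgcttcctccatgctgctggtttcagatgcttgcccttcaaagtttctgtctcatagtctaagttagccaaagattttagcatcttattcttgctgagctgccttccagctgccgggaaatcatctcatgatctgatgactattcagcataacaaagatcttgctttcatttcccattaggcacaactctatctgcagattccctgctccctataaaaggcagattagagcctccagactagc
The C/EBP letters stood in 7 of the 12 higher genes (Saa3, Dmkn, Sbsn, Slpi, Lcn2, Serpina3f and Ackr3) and in 0 of the 7 lower genes, beside 10.8% of all genes in the table; the match began 99 bases upstream in Saa3 and 216 in Lcn2. The NF-kB consensus matched 4 of 12 higher genes and 2 of 7 lower genes (8.23% of all genes), AP-1 3 and 1 (7.82%), and STAT 2 and 0 (8.13%), while Ccl8 and Runx1 held none of these 4. The letters TGACNNNGC of the antioxidant response element matched 0 and 2 (11.5%), the serum response element 0 and 1 (1.62%), and GGAATG of TEAD factors 1 and 2 (14.4%). A match is a string of letters in this window and not evidence of binding.

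Of the chemokine genes, Ccl2, Ccl8 and Ccl9 were among the 16. Ccl2, which encodes the monocyte attractant CCL2 (chr11:81850650-81850709, mm9), read -0.86 and 0.13 with saline, 0.06 and 0.48 with amosite, 1.83 and 3.45 with chrysotile and 2.11 and 2.29 with crocidolite. No chrysotile or crocidolite array came within 1 log2 unit of the amosite or saline arrays, and the difference was 2.47 ± 0.31 or 5.52-fold. Ccl8, another monocyte attractant whose probe lay 79.5 kb from that of Ccl2, read -0.28 and 0.27 with saline, 0.49 and 0.20 with amosite, 1.64 and 2.92 with chrysotile and 2.16 and 2.25 with crocidolite (2.07 ± 0.26, 4.19-fold). Ccl9, also a CC chemokine of chromosome 11, differed by 2.10 ± 0.36, with chrysotile 1 at 0.38 next to amosite 2 at 0.10. Of 28 chemokine genes 10 were higher on all 4 chrysotile and crocidolite arrays and 0 lower. Over all genes with a symbol the shares were 3.74% and 3.58%. Besides Ccl2, Ccl8 and Ccl9, the 10 chemokine genes were Ccl5, Ccl6, Ccl7, Cxcl1, Cxcl5, Cxcl12 and Cx3cl1. The median of the list was only 0.10, and -0.02 under normexp and 0.20 with quantile normalization. It read 0.02 without amosite 2, 0.15 without chrysotile 1 or amosite 1, and 0.18 to 0.23 without saline 2, crocidolite 1 or crocidolite 2, and 8 members were above background on no array. Ackr3, the scavenging receptor that takes up CXCL12, differed by 2.08 ± 0.37, from -1.62 to -1.0 on saline and amosite arrays and from -0.44 to 1.74 on the others.

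Receptor and cytokine genes mostly overlapped between the pools, and some lay higher without overlap. Osmr, the receptor subunit for oncostatin M (chr15:6763686-6763745, mm9), read 1.89 and 1.98 with saline, 1.90 and 2.13 with amosite, 2.75 and 4.13 with chrysotile and 3.80 and 4.03 with crocidolite (1.70 ± 0.25). The 4 saline and amosite arrays agreed to within 0.3 log2 units while the chrysotile arrays differed from each other by more than 1. Spp1, which encodes the cytokine and matrix protein osteopontin, was at 0.63, 0.97, 1.27 and 1.13 with saline and amosite and at 2.71, 3.70, 2.56 and 2.66 with chrysotile and crocidolite (1.91 ± 0.27). Il1rl1, the receptor for interleukin-33, differed by 1.45 ± 0.32 (0.83 under normexp) and its ligand gene Il33 by 0.92 ± 0.17, both without overlap. Olr1, the receptor for oxidised lipoprotein, differed by 1.47 ± 0.28 but was above background on only 2 of the 4 saline and amosite arrays, and by 0.44 under normexp. Of 22 receptor genes 19 had a positive difference and 6 were higher without overlap (median 0.26), while the 24 cytokine genes had 4 higher without overlap and a median of 0.09, which was -0.11 under normexp and from -0.10 to 0.11 when 1 array was left out, the lowest without chrysotile 1. Of all genes with a symbol 3.74% were higher without overlap. Il6, the pyrogenic cytokine, overlapped between the pools (0.65 ± 0.18).

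Fosl1 and Runx1, both on the list of AP-1 and immediate early factors, were also among the 16. Fosl1, which encodes the AP-1 subunit FRA-1 (chr19:5455496-5455555, mm9), read -1.89 and -2.22 with saline, -1.79 and -2.27 with amosite, -0.39 and 0.57 with chrysotile and 0.08 and -0.46 with crocidolite. It differed by 1.99 ± 0.26 and was the 1 gene of the 16 in which chrysotile 1 was not the lowest of its pool. Runx1, a Runt-domain factor (chr16:92605785-92605844, mm9), differed by 1.99 ± 0.24, from -2.6 to -2.26 on saline and amosite arrays and from -1.14 to -0.04 on the others. Among 22 AP-1 and immediate early genes 4 were higher without overlap and 1, Myc, lower. Over all genes with a symbol the shares were 3.74% and 3.58%. Among 20 NF-kB subunit and feedback genes 5 were higher and 0 lower, with a median of 0.14: Bcl3 by 1.09 ± 0.27, Nfkbie by 0.78 ± 0.16 (0.43 under normexp), the adhesion molecule gene Vcam1 by 0.68 ± 0.11, and Nfkbiz and Tnfaip3 by 0.45 and 0.36. Socs3, the feedback inhibitor of cytokine signalling, overlapped because chrysotile 1 (1.26) lay under amosite 1 (1.57), and differed by 1.04 ± 0.36.

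Some genes of enzymes that cut the extracellular matrix lay higher without overlap, 7 of the 25 on the plasminogen and matrix protease list. Over all genes with a symbol 3.74% lay higher and 3.58% lower in that way. Mmp13, a collagenase gene (chr9:7282762-7282821, mm9), read -0.86 and -0.76 with saline, 0.28 and -0.42 with amosite, 0.42 and 1.62 with chrysotile and 1.38 and 1.1 with crocidolite (1.57 ± 0.36). Amosite 1 came close to chrysotile 1 in this gene. Mmp3, the stromelysin gene, differed by 1.46 ± 0.26, and Plau, the urokinase gene, by 1.34 ± 0.32, though Plau was above background on only 2 of 4 saline and amosite arrays and differed by 0.23 under normexp. Of the 25 genes 17 had a positive difference and 8 a negative one (median 0.29, and 0.15 under normexp). Among EGF receptor ligands and other growth factors, Inhba, which encodes the activin A subunit, differed by 0.96 ± 0.16 and Ereg, epiregulin, by 1.12 ± 0.26 (0.30 under normexp), with 7 of 26 genes higher without overlap and 1 lower. Among 24 TGF-beta, SRF and YAP target genes 21 had a positive difference: Ccn1, a secreted matricellular protein gene, by 1.06 ± 0.20, and Ccn2, connective tissue growth factor, by 1.72 ± 0.25 with overlapping pools. Ccn2 nevertheless separated within each replicate number, at -3.75 and -4.61 against -3.07 and -2.41 in replicate 1 and -3.12 and -2.79 against -0.96 and -0.95 in replicate 2.

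Sbsn and Dmkn encode secreted proteins best known from skin. Sbsn, suprabasin (chr7:31540994-31541053, mm9), read 2.90 and 3.06 with saline, 3.14 and 3.04 with amosite, 3.89 and 6.24 with chrysotile and 5.81 and 6.0 with crocidolite (2.45 ± 0.46). Dmkn, dermokine, whose probe lay 25 kb from that of Sbsn, read -1.74 and -2.0 with saline, -1.72 and -1.90 with amosite, -0.85 and 1.5 with chrysotile and 1.34 and 1.06 with crocidolite (2.61 ± 0.51, 6.1-fold). In both genes chrysotile 2 was the highest array and chrysotile 1 the lowest of its pool, and the saline and amosite arrays lay within 0.3 log2 units of each other. Chil1, which encodes a chitinase-like protein, differed by 2.25 ± 0.54, with chrysotile 1 at -2.93 next to saline 1 at -3.07. Endou, an endoribonuclease gene, differed by 1.95 ± 0.29, with chrysotile 1 at -0.13 next to saline 2 at -0.21.

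The lower genes differed by less: the 9 above background in both pools ranged from -1.26 to -1.11. Robo1, the other of the 10, a receptor for Slit guidance proteins (chr16:73046190-73046249, mm9), was above background on all 4 saline and amosite arrays (-4.41, -3.93, -4.09 and -4.57) and on 0 of the chrysotile and crocidolite arrays, so it was at least 1.7-fold lower there. St3gal6, a sialyltransferase gene (chr16:58470722-58470781, mm9), read 0.78 and 1.92 with saline, 1.1 and 1.93 with amosite, 0.51 and 0.13 with chrysotile and -0.22 and 0.30 with crocidolite (-1.26 ± 0.25, 2.39-fold lower). Mrvi1, whose product inhibits calcium release downstream of cyclic GMP, read -1.0 and -1.26 with saline, -1.11 and -1.16 with amosite, -1.69 and -3.06 with chrysotile and -2.20 and -2.53 with crocidolite (-1.23 ± 0.21). Clec3b, tetranectin, which binds plasminogen, differed by -1.20 ± 0.19, although amosite 2 at -0.73 and chrysotile 1 at -0.74 were side by side. Opn3, a light-sensitive opsin, differed by -1.20 ± 0.19, Lix1 by -1.25 ± 0.24 and Cnga4, a subunit of the olfactory cyclic nucleotide-gated channel, by -1.15 ± 0.22, the last being above background on 3 of the 4 chrysotile and crocidolite arrays. Under normexp Lix1 differed by -0.74 and Cnga4 by -0.47. BC061237 and Gm10375, whose probes lay 945 kb apart on chromosome 14, both differed by -1.12 and ran in parallel over the 8 arrays; they may be near copies that share signal. Crygs, gamma-S crystallin, differed by -1.11 ± 0.43, and by -0.65 without amosite replicate 2, the array that read -1.79 where the other 3 of its pool read -3.72 to -3.45.

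Most genes of the oxidative phosphorylation, fatty acid oxidation, lipogenesis and thermogenic lists had small negative differences, and most overlapped between the pools. All 28 oxidative phosphorylation genes had a negative difference and 8 were lower without overlap, with a median of -0.22 (-0.08 in replicate 1 and -0.36 in replicate 2) against -0.06 over all genes with a symbol, of which 39.8% were positive. Of all genes with a symbol 3.58% were lower without overlap. Sdhb, a subunit of succinate dehydrogenase (chr4:140535052-140535108, mm9), read 6.54 and 6.91 with saline, 6.62 and 6.72 with amosite, 6.54 and 6.10 with chrysotile and 6.24 and 6.28 with crocidolite (-0.41 ± 0.13). That difference was little larger than the gap between the 2 saline arrays, and chrysotile 1 equalled saline 1 to 2 decimals. The list's median was -0.29 with quantile normalization and -0.19 with normexp; the 75th percentiles used for scaling also differed between the pools, and their part in it was not tested. Of 22 fatty acid oxidation genes 20 were negative and 2 lower without overlap (median -0.20), with Cpt1a, the entry enzyme of the pathway, higher by 0.44 ± 0.12 without overlap. Of 21 lipogenesis genes 16 were negative and 4 lower without overlap: Thrsp, a regulator of lipid synthesis, by -1.09 ± 0.25, Acacb by -0.53 ± 0.10, and Fasn and Dgat2 by -0.34 each. Of 18 thermogenic genes 2 were lower, including the lipid droplet gene Cidea (-0.81 ± 0.18). Among the 22 adipocyte markers 19 were negative, with a median of -0.14 and only Dgat2 without overlap; Adipoq differed by -0.13 ± 0.11, the nuclear receptor gene Pparg by -0.01 ± 0.09 and Fabp4 by 0.00 ± 0.09, while the carbonic anhydrase gene Car3 differed by -0.94 ± 0.20.

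Stress, iron, interferon and hypoxia genes were among the other lists. Lists not taken up further include S100 and calcium binding, with 5 of 15 genes higher without overlap. In the p53 target list 5 of 21 were higher and 1 lower. Hmox1, haem oxygenase 1 (chr8:77624207-77624266, mm9), depended strongly on replicate number, with 0.25 and 0.36 for saline and amosite against 1.36 and 1.68 for chrysotile and crocidolite in replicate 1, and 2.41 and 2.65 against 3.94 and 4.12 in replicate 2. Its pools overlapped for that reason, and its difference with the block was 1.36 ± 0.12. The 24 NRF2 antioxidant genes as a list had 8 positive (33.3%), 16 negative and a median of -0.06 (-0.11 to -0.02 with 1 array left out). Over all genes with a symbol the median was also -0.06, with 39.8% positive, and 3.74% lay higher without overlap. Among iron genes Steap4, a metalloreductase, differed by 1.45 ± 0.31 and Tfrc, the transferrin receptor, by -0.86 ± 0.16. Of 34 interferon response genes 33 had a positive difference (median 0.38), yet only 2 were higher without overlap, Ifit2 and Oas3; Oas3 was above background on 0 saline and amosite arrays and at least 2.03-fold higher on the others. The median was 0.62 in replicate 1 and 0.23 in replicate 2, the reverse of the acute phase list. In Isg15, which encodes a ubiquitin-like modifier, saline 1 read 3.37 and saline 2 read 4.90, next to 4.74 and 5.13 with chrysotile, 4.70 and 4.83 with crocidolite, and 3.80 and 4.31 with amosite. Of 24 hypoxia and glycolysis genes 22 were positive and 8 higher without overlap (median 0.19; Ndrg1 0.85 ± 0.14, Adm 0.66 ± 0.13), and of 21 stress response and chaperone genes 18 were positive and 7 higher (median 0.28, and 0.22 with quantile normalization).

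**Figure D3:**
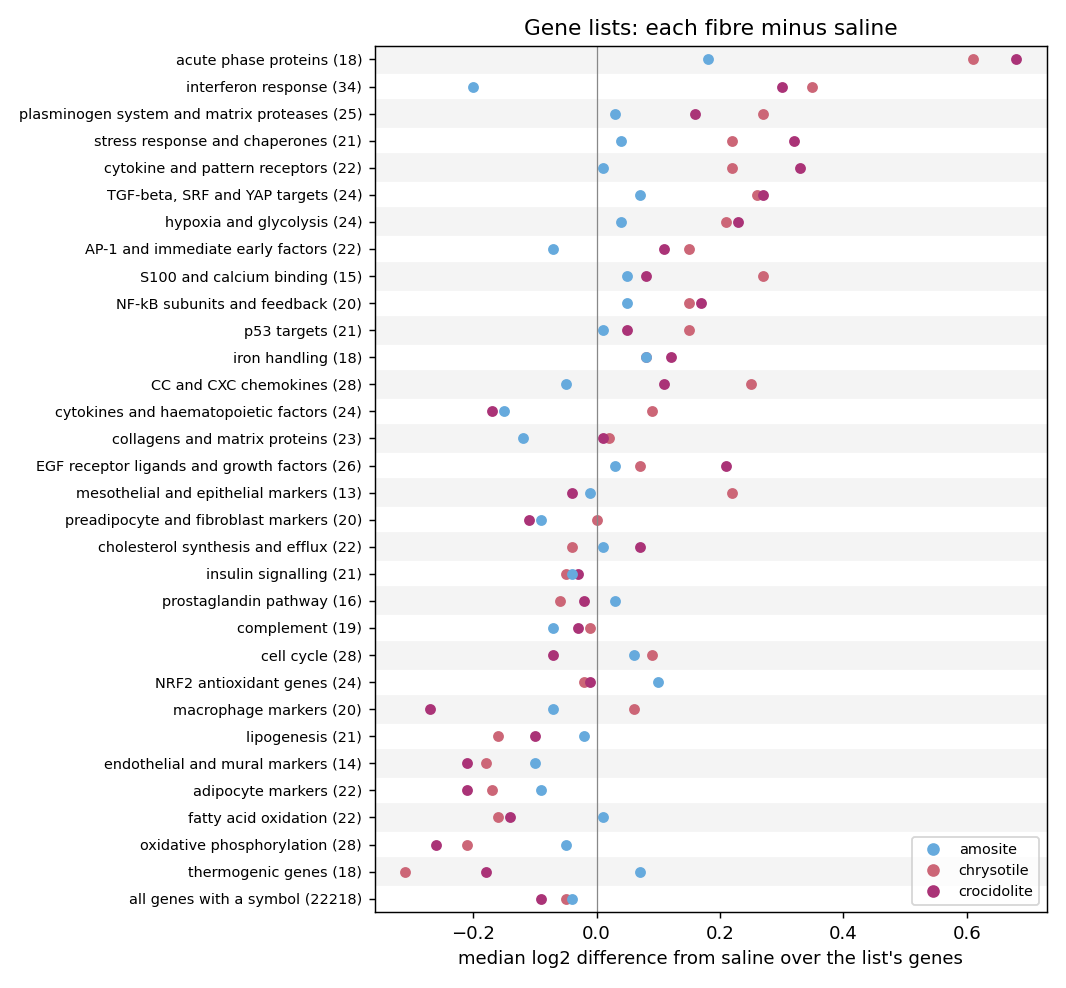
Median log2 difference from saline (horizontal axis) over the genes of each list (vertical axis, number of genes on the array in brackets), for chrysotile, crocidolite and amosite; all 3 share the saline arrays, so they are not independent. The acute phase median was 0.61 with chrysotile, 0.68 with crocidolite and 0.18 with amosite, and the oxidative phosphorylation median -0.21, -0.26 and -0.05.

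Of 67 markers of other cell types 5 lay apart between the pools in either direction (7.46%), near the 7.32% of all genes with a symbol, and their part in the differences above was not tested. Of 20 macrophage markers 8 were above background on all 8 arrays and 7 on none, among the latter Lyz2, Mrc1 and Cd163. Of these 20, 0 lay apart between the pools. The summed intensity of the list, relative to the 75th percentile, was 52.7 to 64.6 on chrysotile and crocidolite arrays and 54.6 to 64.1 on the others. Mpeg1, a macrophage perforin gene, was among those above background on all 8 arrays, with a difference of 1.12 ± 0.20. Of 14 endothelial and mural markers 5 were above background on all 8 arrays and 5, including Cdh5 and Tie1, on none. Of the same 14, 2 were lower without overlap. Of 13 mesothelial and epithelial markers 5 were above background on all 8 arrays, and Epcam and Cdh1 on none. Krt18 was lower without overlap, and Wt1 differed by 1.66 ± 0.35, or 0.72 under normexp, with overlap. Of 20 preadipocyte and fibroblast markers Ly6a was higher by 0.79 ± 0.15 and Fap lower by -0.66 ± 0.15 without overlap, with a list median of 0.03 (-0.04 to 0.05 with 1 array left out). Genes named here beyond the largest 3 of each list were picked after their values had been seen.

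**Figure D4:**
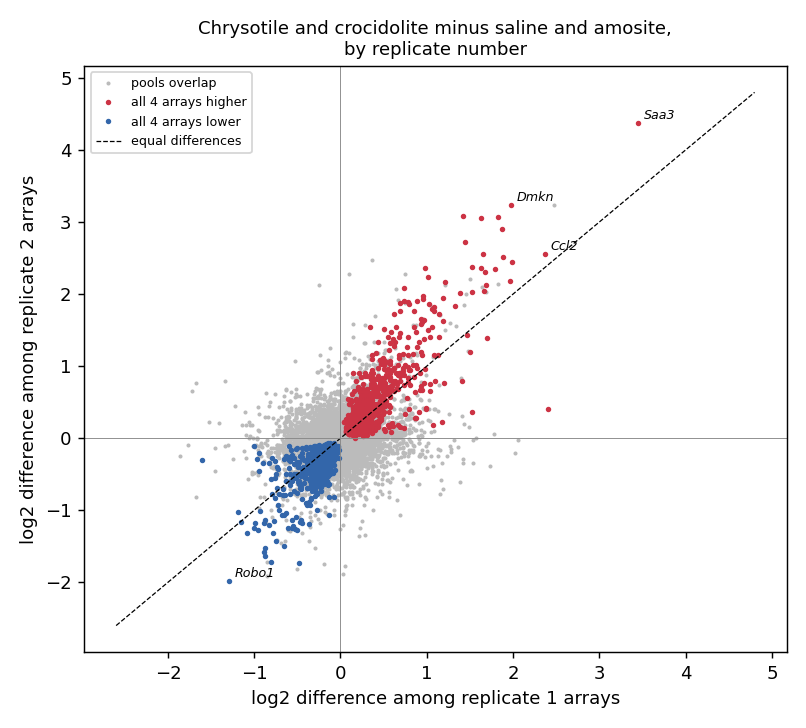
Log2 difference between the pools among the replicate 1 arrays (horizontal axis) and among the replicate 2 arrays (vertical axis) for genes with a symbol above background on all arrays of at least 1 pool; each point is a gene, red or blue where the pools did not overlap. Saa3 (3.45 in replicate 1, 4.38 in replicate 2) and Dmkn (1.98, 3.24) lie above the dashed line of equal differences, and Ccl2 (2.37, 2.56) close to it.

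Among the genes chosen by the pooled difference, its size went with the replicate number, which is a description and no test. Over all genes with a symbol the median difference was -0.03 in replicate 1 and -0.08 in replicate 2. All 25 chosen genes above background in both pools had a larger difference in replicate 2 than in replicate 1. In Cnga4 the 2 were close, at -1.16 and -1.15. The 16 higher genes ranged from 1.42 to 3.45 in replicate 1 and from 2.18 to 4.38 in replicate 2, and the 9 lower genes other than Robo1 from -1.15 to -0.48 and from -1.73 to -1.16. Chrysotile 1 was the lowest array of its pool in 15 of the 16 higher genes and the highest in 8 of those 9 lower genes. In replicate 1 chrysotile lay below crocidolite in 16 of 16 higher genes, and in replicate 2 above it in 15 of 16, so the order of the 2 fibres turned with the replicate number. Leaving out chrysotile 1 raised the difference of Saa3 to 4.4, the highest of its leave-one-out values, of which the lowest was 3.55. Tmem114, picked after its values were seen, went the other way, with 2.41 in replicate 1 and 0.40 in replicate 2.

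**Figure D5:**
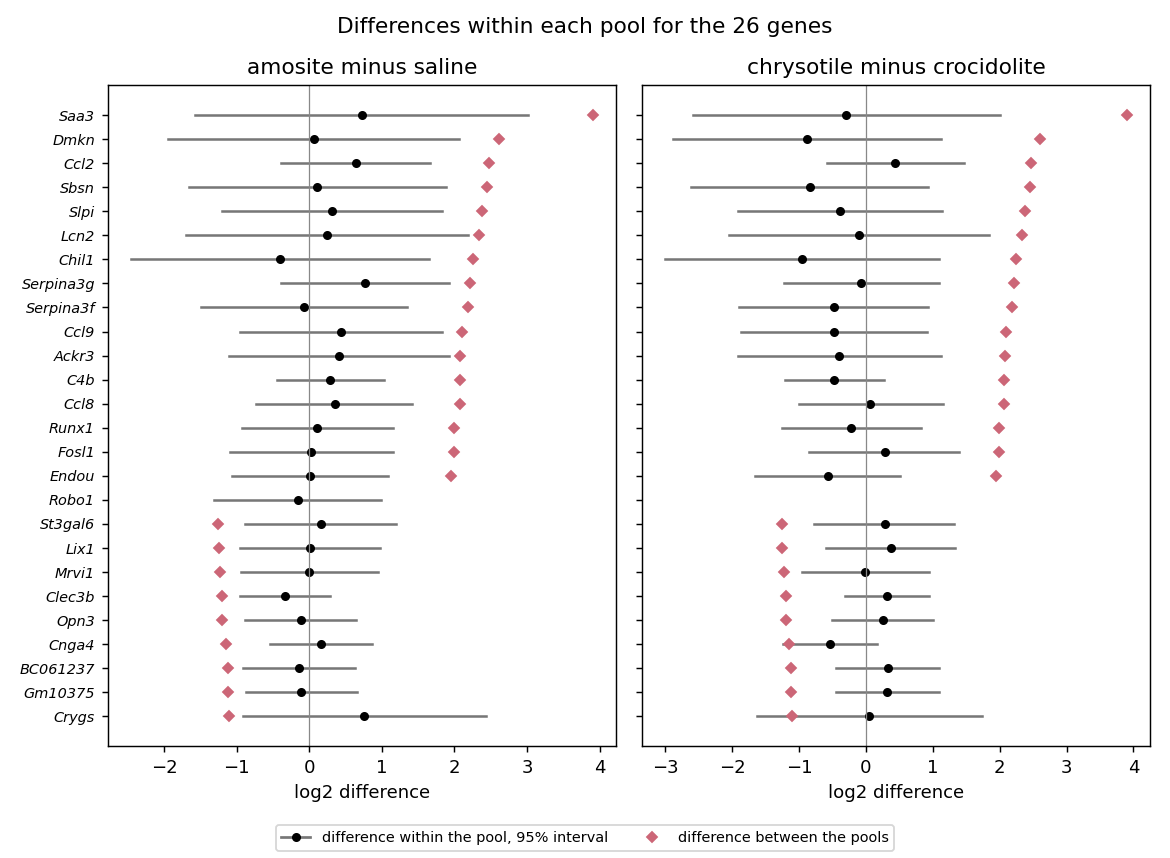
Log2 difference (horizontal axis) of amosite minus saline (left) and chrysotile minus crocidolite (right) for the 26 genes, each with its 95% interval from limma, beside the difference between the pools as diamonds. The 26 genes were picked for pools that did not overlap, which favours small differences within a pool. Every interval drawn includes 0; Robo1, not above background with chrysotile or crocidolite, has no diamond and no value on the right, and that of Saa3 for amosite reaches from -1.57 to 3.02.

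Amosite was set against saline, and chrysotile against crocidolite, in the same 26 genes. These genes were picked for pools that did not overlap and for the largest pooled differences. That rule favours genes whose differences within a pool are small beside that between the pools. The ranges and intervals below are therefore descriptions and no test of likeness within a pool. Amosite minus saline ranged from -0.41 to 0.77, with adjusted p from 0.679 to 1 in limma, and no 95% interval excluded 0. Of the 16 higher genes 14 had a positive amosite minus saline value, and 9 of them (Saa3, Dmkn, Ccl2, Slpi, Serpina3g, Ccl9, Ackr3, C4b and Runx1) lay above the saline array of the same number in both replicates, while Chil1 lay below it in both. Of the 10 lower genes 4 lay below the same-numbered saline array in both replicates and 1, St3gal6, above. Without regard to the numbers, both amosite arrays lay above both saline arrays in 2 of the 26 genes and below both in 3. For Saa3 the amosite value was 0.73 above saline with an interval from -1.57 to 3.02, and for Ccl2 0.64 above with an interval from -0.39 to 1.66, so a shift of up to about 1.66 in Ccl2 lay within the interval. For C4b, with narrower spread, it was 0.29 with an interval from -0.45 to 1.03. Over the 25 genes other than Robo1, which neither fibre's arrays read above background, chrysotile minus crocidolite ranged from -0.95 in Chil1 to 0.44 in Ccl2, each with an adjusted p of 1 and an interval that included 0. For Sbsn it was -0.84 with an interval from -2.62 to 0.93, and for Ccl8 0.07 with an interval from -1.0 to 1.15.

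Outside the 26 genes, some list members had amosite values away from saline before adjustment. Ereg was 0.81 higher with amosite (95% interval 0.44 to 1.17) and Plau 0.96 higher (0.33 to 1.58), although over the saline and amosite arrays Ereg was above background on 3 of 4 and Plau on 2. These intervals are not adjusted for the number of genes, and 0 probes passed after adjustment. The genes of smallest p for amosite minus saline were Bhlha9 (-1.68 ± 0.17), a transcription factor gene at -1.41 and -1.30 with saline and -2.92 and -3.16 with amosite, Tmem25 (-0.87 ± 0.14), Adamts18 (-0.73 ± 0.12), 6430584L05Rik (-0.71 ± 0.12) and 2010204K13Rik (0.63 ± 0.10), all with an adjusted p of 0.623 in limma. For Bhlha9 the chrysotile and crocidolite arrays, from -2.27 to -1.54, lay between the 2 groups.

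The genes of smallest p for chrysotile minus crocidolite split the first pool. Tnnt2, cardiac troponin T (chr1:137747976-137748288, mm9), read -0.48 and -0.22 with chrysotile, -2.29 and -1.78 with crocidolite, -3.14 and -3.14 with saline and -2.67 and -2.92 with amosite, a difference of 1.68 ± 0.22 between the fibres. Hmga2, an architectural chromatin protein gene (chr10:119798739-119798798, mm9), read 1.18 and 1.23 with chrysotile, -0.27 and -0.57 with crocidolite, -0.89 and -1.43 with saline and -0.50 and -1.32 with amosite (1.62 ± 0.24). In both genes crocidolite was closer to saline than chrysotile was. Megf10, a phagocytic receptor gene, was 1.15 ± 0.12 higher with chrysotile, where crocidolite lay with saline and amosite. Otx2 and Gm6639 were 1.01 ± 0.12 and 1.07 ± 0.15 higher with chrysotile than with crocidolite, the lowest of the 4 groups in both. The adjusted p in limma was 0.577 for Megf10, Otx2, Tnnt2 and Gm6639 and 0.598 for Hmga2, none of which passed.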

How the data were processed

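Total RNA of 3T3-L1 adipocytes was labelled with Cy3 and read on Agilent 1-colour mouse arrays. Per the file headers and the submitters' processing notes, Agilent Feature Extraction (10.7.1.1 in the headers, 10.7 in the notes) made the deposited intensity per spot, background-subtracted and detrended within each array and not scaled between arrays; the value table, as deposited, held the same values (largest difference 0). Probe positions are mm9 per the file headers.

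Spots of controls and spots with an outlier flag (99 to 183 per array) were dropped, replicate spots were averaged per probe, 9 probes missing on an array were dropped, and 55672 probes were kept without a filter on dim probes. From the log2 of the deposited intensity, each array's own 75th percentile was subtracted. Symbols came through transcript identifiers for 26759 probes, the current name for 3819 and a synonym for 639, while 24455 probes had none. The brightest probe with a signal above background on 4 arrays of a pool stood for a gene, or the brightest probe where none had; 6989 genes had more than 1 probe. Limma (3.58.1, in R 4.3.3, with data.table version 1.17.8 and statmod 1.5.0) was fitted with lmFit and eBayes, two-sided, with Benjamini-Hochberg adjustment over all probes at 0.05: once for the 2 pools (5 residual degrees of freedom, prior 1.48) and once for the 4 groups (3 and 1.49), both with the replicate number as a block. Values after ± are standard errors from these limma fits, moderated over probes. They come from the fit of 2 pools for differences between the pools and from the fit of 4 groups for differences within them. Same-numbered arrays deviated together (r of deviations 0.21 to 0.36 over all probes, all 6 pairs of groups above 0.1). Replicate number coincided with slide column, so a pairing of the samples and an effect of the column cannot be told apart. A fold against a pool below background is a lower bound against the dimmest probe above background. The number of arrays, 2 per group, limits the precision.

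The pools, the 31 gene lists (662 of 665 symbols on the array), the motifs and the rule for named genes were chosen with earlier results of these data known. The rule took the 16 largest positive and 10 largest negative differences without overlap and with 1 sign in both replicate numbers, the 3 largest differences of each list, the adipocyte markers, and the 5 genes of smallest p in each contrast within the pools. Exon and UTR annotation of the probes was not analysed here. Promoters were searched in Python and figures drawn with matplotlib.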

Additional observations from a re-analysis of the deposited data

Results flagged for a closer look

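Among 129 genes named by the rule, each read in 2 pools of 4 arrays, 10 of 258 groups of 4 had an array whose gap to its nearest neighbour took up more of the group's range than Dixon's 95% limit for 4 samples allows. That limit, passed by chance about 1 in 20 times, supposes 4 like arrays. Each group here mixed 2 treatments and 2 replicate numbers, so nothing is read from the count. With chrysotile and crocidolite, chrysotile 1 stood apart in Robo1, at -4.85 with the nearest array at -6.12, and in Col12a1, at -1.03 against -0.22. Chrysotile 2 stood above the rest in Spp1, at 3.70 against 2.71, and crocidolite 1 in Pla2g2e, at 3.87 against 3.67. With saline and amosite, amosite 2 stood above the rest in Crygs, at -1.79 against -3.45, and amosite 1 in Cd68, at -0.91 against -1.21. Saline 1 was low in Cspg4, at -4.12 against -3.16, and in Fas, at 0.45 against 0.76. Saline 2 was low in Hbegf, at -4.33 against -3.74, and high in Cidec, at 8.29 against 8.05. Robo1 was not above background on any chrysotile or crocidolite array.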

How the results depend on the processing

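The count of probes called between the pools was 0 in the reported fit, without the replicate block (4460 at an unadjusted p under 0.05, against 6749 with it), with 4 groups in the fit, with quantile normalization, from the deposited value table and among the 33042 probes above background in at least 1 group. It was 207 (143 higher, 64 lower) among the 28694 probes above background on all 8 arrays, 537 (324 and 213) with normexp and 586 (439 and 147) with a trended, robust prior. Leaving out 1 array gave 0 to 52, all 52 of them without chrysotile replicate 1. Dim probes left out together with the trended, robust prior, an alternative chosen after seeing the data, gave 1320 (869 and 451). The cause was not tested. Both contrasts within the pools gave 0 calls in every alternative run, the fit without the replicate block and each of the 8 omissions included. The 299 probes at least 2-fold apart without overlap became 139 and 92 under the 2 filters, 270 with quantile normalization and 53 with normexp. The normexp offset of 50 by itself lowers differences of dim probes. Leaving out 1 array gave 382 to 1006, among them 451 without saline 1, 517 without saline 2, 1006 without chrysotile 1, 465 without crocidolite 1, 515 without amosite 1 and 634 without amosite 2, where fewer arrays had to lie apart. Of 130 values compared across settings, 19 moved by more than the spread between replicates under normexp and 1 with quantile normalization. Slide and scan date, 1 of each, allowed no block. Signal over background limits Robo1, Oas3, Olr1, Plau and Ereg, which were dim in 1 pool.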
